A study of Mus musculus with 6 samples.

Results

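Tetraspanins are small membrane proteins that cross the lipid bilayer several times and carry a large extracellular loop with a Cys-Cys-Gly motif. The family was taken as every gene of the deposited table named Tspan with a number, together with Cd9, Cd37, Cd53, Cd63, Cd81, Cd82, Cd151, Upk1a and Upk1b, which gave 29 of 21929 genes. Their levels were compared between L929 cells labelled as having interacted with tumour cells and L929 cells labelled as not having done so. L929 is an established mouse fibroblast line. All 6 libraries are labelled as co-culture. The 3 Biotin-negative libraries (Ctrl1 to Ctrl3) hold cells without tumour interaction, and the 3 Biotin-positive libraries (E1 to E3) hold cells whose label gives an interaction with tumour cells named MFCSTCL. The labels do not spell out that abbreviation, the way biotin was attached or how the cells were separated, and no library is labelled as coming from L929 cells kept alone.

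Tetraspanins bind one another and selected partners side by side in the membrane, where they form patches that hold integrins, immunoglobulin-superfamily proteins, proteases and receptors. Several of them, CD9, CD63 and CD81 above all, are abundant on extracellular vesicles, and CD63 cycles through late endosomes and lysosomes. In fibroblasts the family is known for its part in adhesion to the matrix, in migration and in the shedding of surface proteins.

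Values are FPKM, by that name fragments scaled to gene length and to the size of the library, though their denominator is not given. Levels of different genes are set side by side on that reading. Group values are the mean ± SD over 3 libraries, Biotin-negative before Biotin-positive. Log2 differences are Biotin-positive minus Biotin-negative on the log2(FPKM + 1) scale, on which changes of genes with low values come out too small, and adjusted p-values come from limma, with the Benjamini-Hochberg procedure run over every tested gene. A gene was tested where at least 3 of the 6 libraries reached 1 FPKM, and it is said to have risen or fallen in Biotin-positive cells where its adjusted p was under 0.05. Library sums of FPKM ran from 337771 to 340511 in Biotin-negative and from 349753 to 356681 in Biotin-positive libraries, without overlap. The sequencing depth is unknown. Whether libraries of 1 group are separate cultures is not stated, and the p-values then reflect the spread of these libraries alone, which may be technical. In these bulk samples fewer cells with a transcript and less of it per cell cannot be told apart.

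The labelled cell type was checked on marker genes. Of 11 fibroblast markers 7 stood at 1 FPKM or more in all libraries of both groups, and their summed level ran from 1969 to 2019 FPKM in Biotin-negative and from 2448 to 2519 FPKM in Biotin-positive libraries, while Thy1, Dcn, Lum and Fap stayed below 1 FPKM. Of these 7, 2 rose and 5 fell: Vim went from 658 ± 14.04 to 1418 ± 43.5 FPKM and S100a4 from 539 ± 15.7 to 722 ± 37.7 FPKM, while the collagen genes Col1a1, Col1a2 and Col3a1 and the receptor genes Pdgfra and Pdgfrb fell. Col3a1 fell from 208 ± 5.94 to 58.2 ± 0.943 FPKM. Of 16 epithelial markers 0 reached 1 FPKM in all Biotin-negative and 2, the keratin genes Krt7 and Krt8, in all Biotin-positive libraries, with sums from 1.38 to 1.52 FPKM and from 46.0 to 48.2 FPKM. The defining epithelial genes Epcam, Cdh1 and Krt18 were at or below 0.0263 FPKM in every library, and Krt5 was listed at 0 in all 6. The 6 endothelial markers summed to at most 0.941 FPKM and the 4 urothelial markers to at most 0.127 FPKM in any library. Of the 10 leukocyte markers, Cd3e and Adgre1 were listed at 0 in all libraries and Ptprc, the gene of the pan-leukocyte antigen CD45, was at most 0.0354 FPKM, while the list summed to between 9.24 and 11.1 FPKM in the Biotin-negative and between 11.2 and 13.1 FPKM in the Biotin-positive group. In that list Lyz2 rose from 1.36 ± 0.164 to 2.42 ± 0.199 FPKM, Cd68 fell from 8.59 ± 0.864 to 7.13 ± 0.805 FPKM, and Cd79a, which was tested only through the Biotin-positive libraries, was at 0.106 ± 0.0462 and 2.32 ± 0.453 FPKM. The 5 platelet markers summed to between 1.45 and 2.195 FPKM over both groups.

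Cd9, Tspan7 and Tspan13 stood at 0 to 0.824 FPKM in Biotin-negative and at 1.17 to 30.9 FPKM in Biotin-positive libraries, and their promoters are shown because these 3 members have the largest log2 differences. Each window runs from 250 bases before to 50 bases after a RefSeq transcription start on the GRCm38.p6 build, the build on which the gene positions of the expression table also lie. The motifs searched on both strands were the TEAD motif CATTCC and the AP-1 motif TGANTCA, which do not overlap each other in the printed windows, and capitals mark a match. The windows are Cd9 at chr6:125494711-125495010 on the minus strand, Tspan13 at chr12:36042429-36042728 on the minus strand and Tspan7 at chrX:10484866-10485165 on the plus strand.
Cd9: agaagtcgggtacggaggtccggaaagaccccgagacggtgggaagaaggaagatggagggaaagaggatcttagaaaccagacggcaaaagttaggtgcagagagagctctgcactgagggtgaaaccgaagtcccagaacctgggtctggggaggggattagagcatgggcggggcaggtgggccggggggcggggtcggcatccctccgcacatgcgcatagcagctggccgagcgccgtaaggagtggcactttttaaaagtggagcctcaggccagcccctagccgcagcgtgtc
Tspan13: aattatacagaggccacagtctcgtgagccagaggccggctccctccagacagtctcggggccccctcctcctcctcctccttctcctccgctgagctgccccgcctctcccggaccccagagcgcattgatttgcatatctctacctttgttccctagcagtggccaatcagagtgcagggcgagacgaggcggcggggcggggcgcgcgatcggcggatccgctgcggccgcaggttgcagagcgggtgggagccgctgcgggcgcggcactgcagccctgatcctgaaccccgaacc
Tspan7: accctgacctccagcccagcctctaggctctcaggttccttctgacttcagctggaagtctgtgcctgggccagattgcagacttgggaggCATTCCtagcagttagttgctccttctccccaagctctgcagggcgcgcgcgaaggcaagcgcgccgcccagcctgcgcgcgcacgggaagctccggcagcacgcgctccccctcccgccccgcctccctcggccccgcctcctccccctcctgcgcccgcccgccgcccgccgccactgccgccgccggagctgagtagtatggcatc

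The Tspan7 window holds 1 TEAD motif, whose leftmost base is number 92 of the 300, counted from the 5′ end. The Cd9 and Tspan13 windows hold neither motif. RefSeq windows were matched for 27 of the 29 members, 37 windows in all, since some genes have several starts. A TEAD motif stood in 16.2% of the tetraspanin windows, in Cd82, Tspan7, Tspan9 and Tspan12, against 14.7% of the 32851 windows of all genes, and an AP-1 motif in 5.41%, in Tspan4 and Tspan15, against 7.81%. The Cd9, Tspan13 and Tspan7 windows hold 18, 26 and 27 CpG dinucleotides, where the median is 11 over tetraspanin windows and 7 over all windows. A match describes the letters of a window and does not show that a factor binds there.

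Of the 29 members 19 were tested and 10 were not. Among the tested 19, 7 rose, 7 fell and 5 did not pass, so 36.8% rose and 36.8% fell. Over all 11029 tested genes 37.8% rose and 36.1% fell, 73.9% in either direction, so the share of tetraspanins that changed was near that of all genes. The median log2 difference was -0.05 for the tested members and 0.01 for all tested genes, and the median of its absolute size was 0.33 and 0.31. The groups did not overlap for 7 members in the upward and 7 in the downward direction, the same 14 genes, where 39.1% and 37.8% of all tested genes did so, 76.9% together. A log2 difference of at least 1 with a passing p was found for 3 members, all upward, against 8.7% of all tested genes. These 3, Cd9, Tspan7 and Tspan13, reached testing only through the Biotin-positive libraries and so had to differ. Of all 11029 tested genes 293 had no Biotin-negative library at 1 FPKM. Among the other 16 tested members 4 rose, 7 fell and 5 did not pass, which is 25% and 43.8%. The shares of all genes under the same restriction were not computed, so these counts have no matching background.

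**Figure D1:**
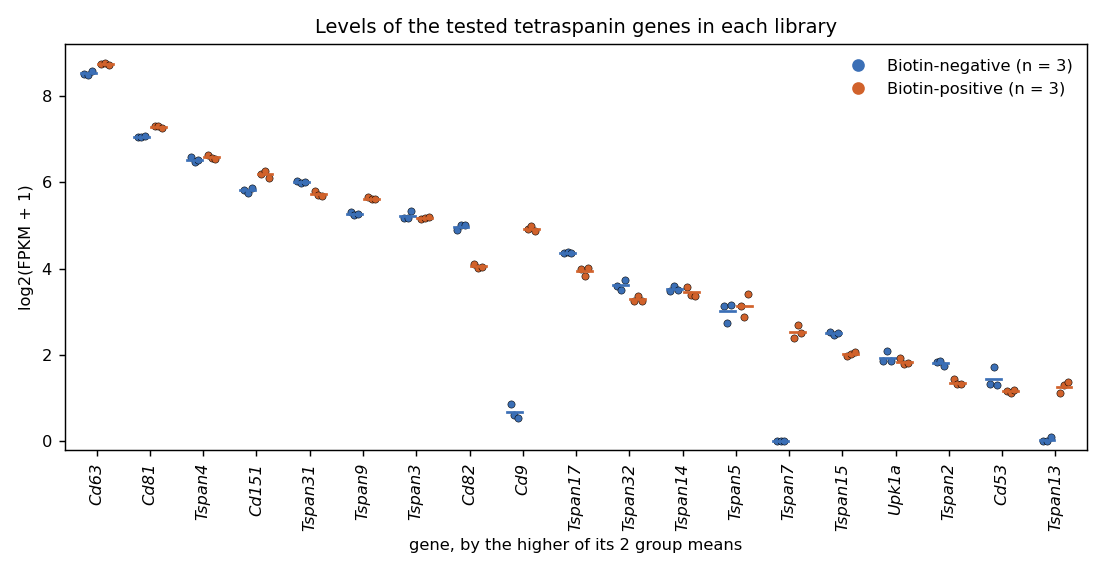
Level of each tested tetraspanin gene in each library, as log2(FPKM + 1) on the vertical axis, with genes ordered by the higher of their group means. Points are libraries and bars are group means. Cd9, Tspan7 and Tspan13 are the members with every Biotin-negative value below 1 FPKM and every Biotin-positive value above it.

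The summed level of the family was 873, 856 and 892 FPKM in the Biotin-negative libraries and 993, 993 and 967 FPKM in the Biotin-positive ones, without overlap. This was 0.253 to 0.262% of all FPKM in the former and 0.276 to 0.279% in the latter. Cd63 alone gave 42.0 ± 0.37% of the family sum in Biotin-negative and 43.3 ± 0.55% in Biotin-positive cells, and Cd81 gave 15.1 ± 0.23% and 15.7 ± 0.04%. The order of the members changed little at the top: Cd63, Cd81 and Tspan4 held ranks 1, 2 and 3 by group mean in both groups, and Tspan31 and Cd151 exchanged ranks 4 and 5. Cd9 moved from rank 17 to rank 8, with 29.4 FPKM beside 35.0 FPKM of Tspan3 at rank 7 and 15.6 FPKM of Cd82 at rank 9.

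**Figure D2:**
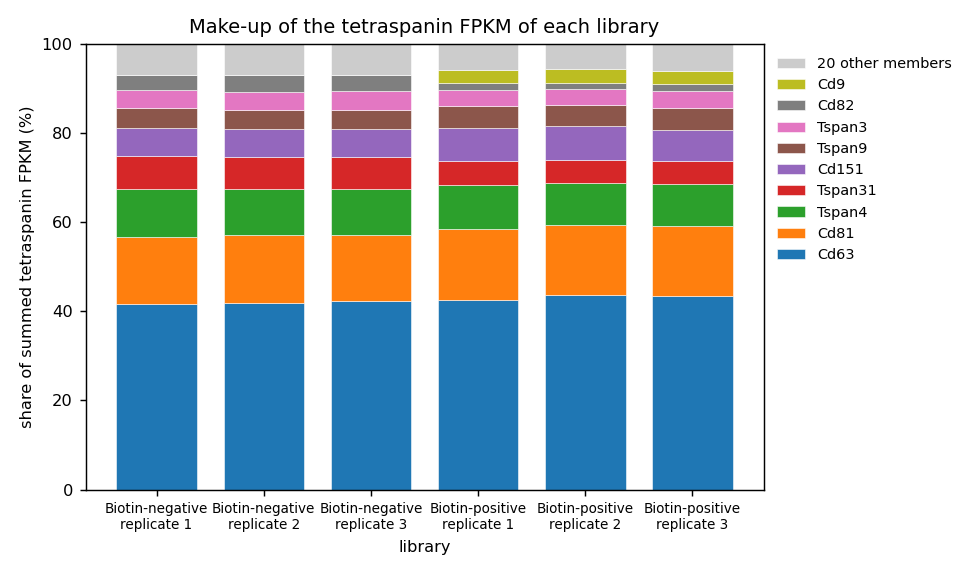
Share of each member in the summed tetraspanin FPKM of each library, in percent, stacked from 0 to 100. Cd63 fills 41.7 to 43.7% of each bar, Cd9 is visible in the Biotin-positive bars, and the Cd82 band is narrower there, at 1.59% against 3.48%.

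The 5 members best known from the plasma membrane and from vesicles all changed, 4 upward, of which Cd9 was tested only through the group in which it is high, and 1 downward. Of all tested genes 73.9% changed, 37.8% upward and 36.1% downward. The sum of the 5 was 585 ± 12.9 FPKM in Biotin-negative and 697 ± 14.1 FPKM in Biotin-positive cells. Cd9, whose protein pairs with the immunoglobulin-superfamily proteins EWI-2 and EWI-F and is needed on the egg for fusion with sperm, is on chromosome 6 from 125460266 to 125494791 on GRCm38, the build of all gene positions given here (ENSMUSG00000030342). Biotin-negative libraries 1 to 3 had 0.824, 0.528 and 0.455 FPKM of it, and Biotin-positive libraries 1 to 3 had 29.1, 30.9 and 28.3 FPKM. Every Biotin-positive library was thus above every Biotin-negative one, and the spread within each group was small beside the distance between them. The mean was 0.602 ± 0.195 FPKM in the former and 29.4 ± 1.33 FPKM in the latter, a rise of 48.8-fold (log2 difference 4.25, SE 0.0873, limma adjusted p = 3.78e-09). The keratin genes Krt7 and Krt8 moved in the same libraries, Krt7 from 0.236 ± 0.0759 to 24.7 ± 1.18 FPKM and Krt8 from 0.0362 ± 0.0153 to 20.8 ± 0.355 FPKM. Both were tested only through the Biotin-positive libraries, and the other epithelial markers, of 16 in all, stayed below 1 FPKM. Of those, Muc1 was lower without overlap (means 0.753 and 0.473 FPKM), and Grhl2 and Krt14 were higher without overlap. Epcam was listed at 0 in 4 of the 6 libraries and at most at 0.0231 FPKM in the others. The part of other cells' RNA in the Cd9 value was not tested. In the GENCODE vM21 annotation 10.7% of the exonic bases of Cd9 also belong to the transcript Gm26728 of the opposite strand.

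Cd82, on chromosome 2 from 93419111 to 93463140 (ENSMUSG00000027215), encodes the protein also called KAI1, known as a suppressor of metastasis. It stood at 28.9, 31.1 and 31.1 FPKM in Biotin-negative and at 16.3, 15.3 and 15.4 FPKM in Biotin-positive cells. Its level fell without overlap, from 30.4 ± 1.26 to 15.6 ± 0.549 FPKM, a ratio of 0.515 (log2 difference -0.91, SE 0.0448, limma adjusted p = 3.21e-07). This was the largest fall among the tested members. Cd82 and Cd9 thus stood apart by their direction: the FPKM of Cd82 was above that of Cd9 in every Biotin-negative library and below it in every Biotin-positive one.

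Cd63, the vesicle and lysosome tetraspanin and the highest member (chromosome 10, 128900989 to 128912822, ENSMUSG00000025351), stood at 364, 358 and 378 FPKM in Biotin-negative and at 423, 434 and 421 FPKM in Biotin-positive cells. The groups did not overlap, and the rise was 1.16-fold, with means of 367 ± 10.1 and 426 ± 6.96 FPKM (log2 difference 0.22, SE 0.0305, limma adjusted p = 0.000221). Of the Cd63 transcript 73.2% has a match of at least 98% identity in the pseudogene Cd63-ps, so its level is uncertain. Cd81, a coreceptor subunit on B cells that is also widely expressed (chromosome 7, 143052739 to 143067934, ENSMUSG00000037706), stood at 132, 131 and 132 FPKM in Biotin-negative and at 156, 156 and 152 FPKM in Biotin-positive cells. It rose 1.17-fold, with means of 132 ± 0.712 and 155 ± 2.44 FPKM (log2 difference 0.23, SE 0.0264, limma adjusted p = 6.18e-05). Its groups did not overlap. The log2 differences of Cd63 and Cd81 were the smallest among the members that passed, and quantile normalization lowered their log2 differences to 0.13 (adjusted p = 0.0027) and 0.11 (adjusted p = 0.00132). Cd151, the partner of laminin-binding integrins (chromosome 7, 141467392 to 141471473, ENSMUSG00000025510), stood at 55.7, 53.1 and 57.0 FPKM in Biotin-negative and at 72.6, 75.6 and 67.1 FPKM in Biotin-positive cells. It rose 1.30-fold without overlap, with means of 55.3 ± 2.01 and 71.8 ± 4.35 FPKM (log2 difference 0.37, SE 0.0486, limma adjusted p = 0.000144).

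**Figure D3:**
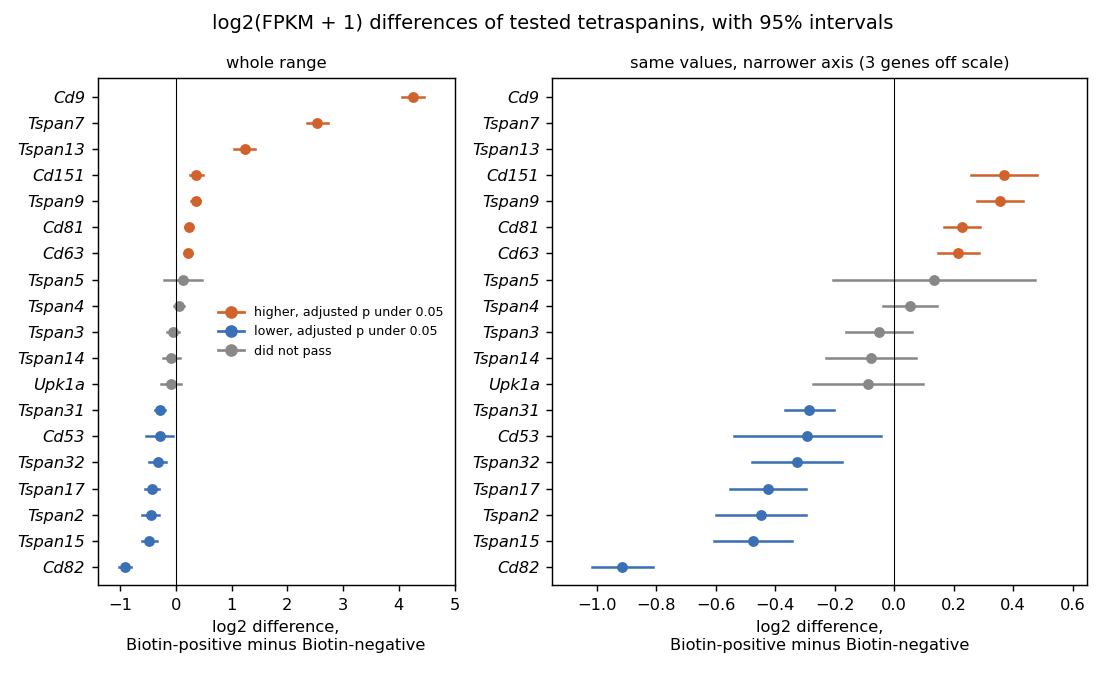
Log2 differences of the 19 tested tetraspanins, Biotin-positive minus Biotin-negative, with 95% intervals from limma; the left panel has the whole range and the right panel a narrower axis that leaves out Cd9, Tspan7 and Tspan13. The 5 members whose intervals cross 0 are those that did not pass, and Cd82 lies farthest to the left at -0.91.

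The TspanC8 members, named for the cysteines of the large loop, bind the sheddase ADAM10 and help it leave the endoplasmic reticulum. Of the 6, 4 were tested: 2 fell, 2 did not pass and 0 rose, where 36.1% of all tested genes fell and 37.8% rose. Tspan17 fell from 19.6 ± 0.210 to 14.4 ± 1.10 FPKM (log2 difference -0.43, adjusted p = 0.000138 in limma) and Tspan15 from 4.66 ± 0.170 to 3.07 ± 0.129 FPKM (log2 difference -0.48, adjusted p = 8.07e-05). Tspan14 stood at 10.2, 11.03 and 10.4 FPKM in Biotin-negative and at 11.01, 9.54 and 9.35 FPKM in Biotin-positive cells. Its groups overlapped, with means of 10.6 ± 0.423 and 9.97 ± 0.906 FPKM, and its 95% interval ran from -0.23 to 0.07 (SE 0.0659, limma adjusted p = 0.309). Tspan5 varied most within the groups, at 7.76, 5.68 and 7.90 FPKM and at 7.72, 6.41 and 9.68 FPKM. The means were 7.12 ± 1.24 and 7.94 ± 1.64 FPKM. Its 95% interval, from -0.21 to 0.48, is the widest of the tested members (SE 0.148, limma adjusted p = 0.432). Tspan10 was listed at 0 in all libraries and Tspan33 at 0.0415 to 0.0522 FPKM in Biotin-negative and 0 to 0.0224 FPKM in Biotin-positive ones. Summed over the 6 genes, the level was 42.0 ± 0.777 FPKM in Biotin-negative and 35.4 ± 2.77 FPKM in Biotin-positive cells, without overlap.

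Among the members known from white blood cells, Tspan32, of the blood cell lineages and platelets, was the highest and fell from 11.3 ± 0.907 to 8.79 ± 0.513 FPKM (log2 difference -0.33, limma adjusted p = 0.00202). It shares 4.35% of its exonic bases with Tspan32os of the opposite strand. Cd53, a leukocyte tetraspanin, stood at 1.504, 2.28 and 1.48 FPKM and at 1.23, 1.19 and 1.27 FPKM. The groups did not overlap and it fell narrowly, with means of 1.75 ± 0.457 and 1.23 ± 0.0416 FPKM (log2 difference -0.29, SE 0.108, limma adjusted p = 0.0366). Biotin-negative replicate 2 was well above the other two. Without that library its log2 difference was -0.16 (adjusted p = 0.0711), and without Biotin-positive replicate 1, 2 or 3 the adjusted p was 0.0765, 0.0884 and 0.0693. With a pseudocount of 0.1 the log2 difference was -0.45 (adjusted p = 0.0334). Cd37, also a leukocyte member, was below the testing level at 0.191, 0.0575 and 0.232 FPKM in Biotin-negative and 0.897, 0.790 and 0.830 FPKM in Biotin-positive cells. The groups did not overlap, and Cd37 was higher where Tspan32 and Cd53 were lower. Its gene overlaps that of the TEAD family factor Tead2, on the opposite strand, by 13 exonic bases. Tead2 stood at 20.5 ± 1.36 and 26.3 ± 2.45 FPKM. Beside these members the leukocyte markers Cd79a and Lyz2 were higher and Cd68 was lower in Biotin-positive cells, with the values given above, and Ptprc was listed at 0 in each of those libraries. Their part in the values of Cd37, Cd53 and Tspan32 was not tested.

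The uroplakins UPIa and UPIb are the tetraspanins of the plaques that cover the bladder lining. Upk1a stood at 2.61, 3.25 and 2.66 FPKM and at 2.82, 2.49 and 2.49 FPKM. The groups overlapped, with means of 2.84 ± 0.356 and 2.60 ± 0.191 FPKM, and the 95% interval of the difference ran from -0.27 to 0.10 (SE 0.0805, limma adjusted p = 0.343). Upk1b was listed at 0 in all libraries, as were the urothelial genes Upk3a and Krt20. Upk2 was at 0.101, 0.0897 and 0.0987 FPKM in the Biotin-negative libraries and listed at 0 in the Biotin-positive ones, and Upk3b was at most 0.0757 FPKM in any library.

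Of the remaining 13 members 7 were tested, and 3 rose, 2 fell and 2 did not pass, so that 71.4% changed beside 73.9% of all tested genes. Among the rises, Tspan7 and Tspan13 were tested only through the Biotin-positive libraries and so had to differ. Tspan7, a gene of the X chromosome (10485158 to 10596605, ENSMUSG00000058254) whose loss is a cause of intellectual disability, was listed at 0 throughout the Biotin-negative group. Its Biotin-positive values were 4.30, 5.48 and 4.66 FPKM, with a mean of 4.81 ± 0.606 FPKM, which sets the groups fully apart (log2 difference 2.53, SE 0.0814, limma adjusted p = 3.34e-08). With a pseudocount of 0.1 in place of 1 the log2 difference was 5.61, so its size depends on that choice and is no bound. Tspan13, on chromosome 12 from 36014557 to 36042500 (ENSMUSG00000020577), was listed at 0, 0 and 0.0679 FPKM in Biotin-negative and at 1.17, 1.48 and 1.61 FPKM in Biotin-positive cells, where the mean was 1.42 ± 0.226 FPKM. It rose (log2 difference 1.24, SE 0.0827, limma adjusted p = 2.03e-06), with 3.67 and 1.87 at pseudocounts of 0.1 and 0.5. Tspan7 and Tspan13 shared with Cd9 Biotin-negative values below 1 FPKM, which follows from their being tested only through the Biotin-positive libraries. Their Biotin-positive levels were lower than that of Cd9, and Cd9 was above 0 in every Biotin-negative library, at 0.455 to 0.824 FPKM.

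Tspan9, which is abundant in platelets, rose from 37.5 ± 0.951 to 48.3 ± 1.04 FPKM (log2 difference 0.36, limma adjusted p = 1.91e-05). Tspan2, known from oligodendrocytes, fell from 2.51 ± 0.163 to 1.58 ± 0.114 FPKM (log2 difference -0.45, adjusted p = 0.000288). Tspan31 (chromosome 10, 127067280 to 127070264, ENSMUSG00000006736) stood at 63.8, 62.4 and 63.7 FPKM in Biotin-negative and at 54.2, 50.8 and 50.3 FPKM in Biotin-positive cells. It fell without overlap, with means of 63.3 ± 0.771 and 51.8 ± 2.10 FPKM (log2 difference -0.29, SE 0.0360, limma adjusted p = 0.000112). It overlaps the cyclin-dependent kinase gene Cdk4 on the opposite strand, with which it shares 29.2% of its exonic bases. Cdk4 stood at 144 ± 3.89 and 167 ± 2.08 FPKM, higher in the Biotin-positive group. The strandedness of the counting is not given in the sources used here, so reads in the shared stretch cannot be assigned to either gene with certainty.

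Tspan4, the organiser of migrasomes, which are vesicles left behind on retraction fibres of moving cells, stood at 94.2, 87.9 and 90.9 FPKM and at 98.7, 93.8 and 91.2 FPKM. The groups overlapped, with means of 91.0 ± 3.13 and 94.6 ± 3.83 FPKM, and the 95% interval ran from -0.04 to 0.15 (SE 0.0396, limma adjusted p = 0.238). It shares 13.4% of its exonic bases with Chid1 of the opposite strand, which stood at 9.22 ± 0.667 and 10.5 ± 0.267 FPKM. Tspan3 stood at 34.9, 35.1 and 39.3 FPKM and at 34.7, 34.8 and 35.6 FPKM. These groups overlapped too, with means of 36.4 ± 2.46 and 35.0 ± 0.479 FPKM and a 95% interval from -0.16 to 0.06 (SE 0.0482, limma adjusted p = 0.352). Tspan3, Tspan4, Tspan5, Tspan14 and Upk1a are the 5 tested members that did not pass, and a p above the threshold does not show that the groups were equal.

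The 10 members below the testing level reached at most 0.897 FPKM in any library, the highest value of Cd37. Tspan8, known from carcinomas of the digestive tract, was at 0.0857, 0.0465 and 0.160 FPKM in Biotin-negative and at 0.783, 0.462 and 0.380 FPKM in Biotin-positive cells, without overlap. Tspan6 stood at 0 to 0.0253 FPKM and at 0.0268 to 0.0972 FPKM. Cd37, Tspan8 and Tspan6 are the 3 untested members that were higher in every Biotin-positive library, and Tspan33 the 1 that was lower. The share of all untested genes without overlap was not computed, so these counts have no background beside them. For Tspan6 the groups were separated by 0.0253 against 0.0268 FPKM only, values near 0. Tspan1 was at most 0.0772 FPKM and Tspan18 at most 0.147 FPKM in any library, with overlapping groups. Tspan11 and Tspan12 were above 0 in 1 library each, at 0.0115 and 0.0310 FPKM, and Tspan10 and Upk1b in none. Just inside the testing level were Cd53, with 1.19 to 1.27 FPKM in the Biotin-positive group, and Tspan13, and just outside it were Cd37 and Tspan8. Peripherin 2 (Prph2) and Rom1, the photoreceptor relatives that the naming rule leaves out, were listed at 0 and at 0.223 to 0.767 FPKM.

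**Figure D4:**
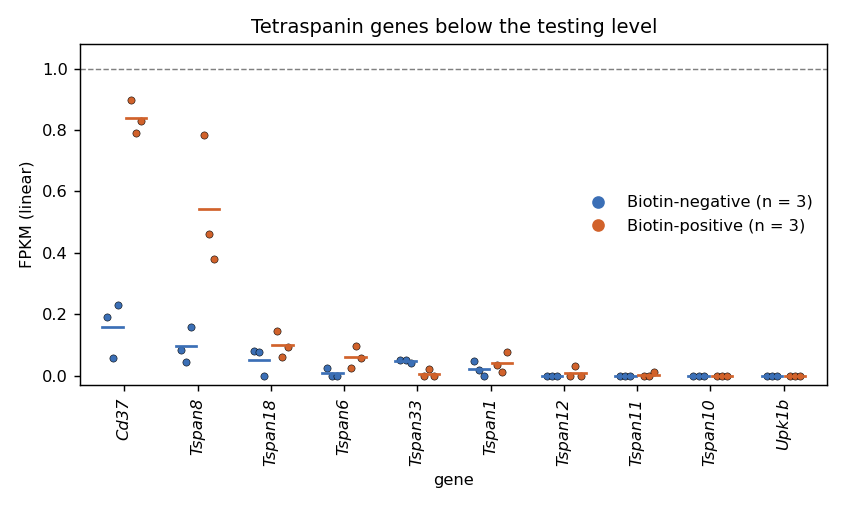
FPKM of the 10 tetraspanin genes below the testing level, on a linear axis, with 1 point per library, a bar per group mean and a dashed line at 1 FPKM. Cd37 and Tspan8 are the members whose Biotin-positive points stand clear of the Biotin-negative ones, below the dashed line.

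The 29 genes lie on 13 chromosomes, and 4 pairs of members are neighbours within 100 kb on GRCm38. Cd151 and Tspan4 on chromosome 7 are 3.8 kb apart with Polr2l between them. Cd151 rose and Tspan4 did not pass. Tspan11 and Tspan9 on chromosome 6 are 7.4 kb apart with no gene of the table between them, and Tspan11 was near 0 in all libraries while Tspan9 rose. Tspan32 and Cd81 on chromosome 7 are 33.1 kb apart, also with no gene of the table between them, and Tspan32 fell while Cd81 rose. Tspan18 and Cd82 on chromosome 2 are 84.6 kb apart, and Tspan18 was at most 0.147 FPKM while Cd82 fell. In each of these 4 pairs the members thus had different calls, or 1 of them was below the testing level.

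The partners of tetraspanins were described from lists of other genes of the pathways in which the family acts. Of 25 lateral partners, membrane proteins that bind tetraspanins side by side, 19 were tested, and 7 rose, 6 fell and 6 did not pass (median log2 difference -0.02). These shares, 36.8% and 31.6%, are near the 37.8% and 36.1% of all tested genes, and 1 of the falls, Cd46, was tested only through the Biotin-negative libraries. The integrin chain Itga3, which pairs with CD151, rose from 1.83 ± 0.125 to 5.04 ± 0.329 FPKM (log2 difference 1.09, limma adjusted p = 1.12e-06). Of other chains of laminin-binding integrins, Itga6, at 27.4 ± 0.774 and 25.6 ± 0.871 FPKM, did not pass (limma adjusted p = 0.0517). Itga7, at 7.41 ± 0.641 and 6.67 ± 0.258 FPKM, did not pass either (limma adjusted p = 0.107), while Itgb4 rose from 1.06 ± 0.0581 to 2.10 ± 0.0745 FPKM. The matrix metalloproteinase gene Mmp14 fell from 116 ± 5.44 to 59.3 ± 1.57 FPKM (log2 difference -0.96). Ptgfrn, which encodes EWI-F, a direct partner of CD9 and CD81, fell from 82.1 ± 3.35 to 42.3 ± 0.323 FPKM (log2 difference -0.94, limma adjusted p = 7.83e-08). Itga6, Itga7, Itgb4, Igsf8, Hbegf and Itgb1 were picked for their role after their values were seen. Igsf8, which encodes EWI-2, rose from 26.2 ± 1.19 to 30.6 ± 0.992 FPKM, and Hbegf, the EGF-family ligand whose precursor binds CD9, from 8.69 ± 1.02 to 13.1 ± 1.19 FPKM. The integrin beta 1 gene Itgb1, at 142 ± 2.13 and 142 ± 2.50 FPKM, did not pass (95% interval from -0.06 to 0.07).

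The ADAM10 list holds this sheddase, its relative ADAM17, substrates of these, and Rhbdf2, which is neither sheddase nor substrate. It had 12 of 20 genes tested, of which 2 rose, 4 fell and 6, Rhbdf2 among them, did not pass (median log2 difference -0.06). Thus 50% changed, beside 73.9% of all tested genes. Adam10 itself, picked for its role, stood at 22.2 ± 0.836 and 23.0 ± 0.442 FPKM, with a 95% interval from -0.04 to 0.14 (limma adjusted p = 0.302). The membrane-bound chemokine gene Cx3cl1 fell from 13.2 ± 0.638 to 4.88 ± 0.383 FPKM (log2 difference -1.27), Adam17 from 36.7 ± 0.561 to 20.7 ± 0.0402 FPKM and the amyloid precursor gene App from 168 ± 36.8 to 104 ± 12.0 FPKM. The EGF-family ligand gene Btc rose from 1.14 ± 0.169 to 1.62 ± 0.113 FPKM. The TspanC8 members Tspan15 and Tspan17 thus fell in libraries in which Adam10 did not pass.

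Of 28 genes of vesicle formation and release 24 were tested, and 14 rose, 8 fell and 2 did not pass (median log2 difference 0.15), which is 58.3% and 33.3% beside 37.8% and 36.1% of all tested genes. Rab27b, a GTPase of vesicle docking, was listed at 0 throughout the Biotin-negative group and stood at 2.16, 2.36 and 1.95 FPKM in Biotin-positive cells. It is 1 of the 14 and was tested only through the group in which it is high, so that it had to differ. The syndecan genes Sdc1 and Sdc3, whose proteins are heparan sulfate carriers, fell from 102 ± 1.67 to 44.8 ± 0.684 FPKM and from 49.4 ± 1.44 to 29.3 ± 0.832 FPKM. The late endosome and lysosome membrane list, the compartment of CD63, had 15 of 16 genes tested, and 3 rose, 9 fell and 3 did not pass (median log2 difference -0.24), or 20% and 60% beside the 37.8% and 36.1% of all tested genes. Lamp1 fell from 403 ± 5.204 to 249 ± 6.30 FPKM and Laptm4b from 99.0 ± 2.05 to 52.7 ± 1.04 FPKM. Timp1, 1 of the 3 rises, encodes a secreted metalloproteinase inhibitor that binds CD63 and is not itself a membrane protein of this compartment. It rose from 38.9 ± 0.506 to 75.8 ± 4.90 FPKM (log2 difference 0.94). Lamp1 of this list fell in the libraries in which Cd63, not a gene of the list, rose.

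Tspan12 acts with the receptor Frizzled 4 in the response to Norrin. Of the 11 genes of this receptor complex and its signal chain 8 were tested, and 0 rose, 7 fell and 1 did not pass (median log2 difference -0.26). The fallen genes are 87.5% of those tested, beside 36.1% of all tested genes. The 1 gene that did not pass, Axin1, had a log2 difference of -0.06 (limma adjusted p = 0.205). Fzd4 fell from 4.80 ± 0.263 to 3.28 ± 0.126 FPKM, the adaptor gene Dvl1 from 40.7 ± 1.69 to 32.3 ± 0.651 FPKM and the beta-catenin gene Ctnnb1 from 118 ± 1.496 to 94.8 ± 1.51 FPKM. The ligand gene Ndp stayed below the testing level, as did Lef1 and Tcf7, and Tspan12 was near 0. Without Biotin-negative replicate 1 or 3 the falls numbered 5, and with an equal sum per library 8.

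**Figure D5:**
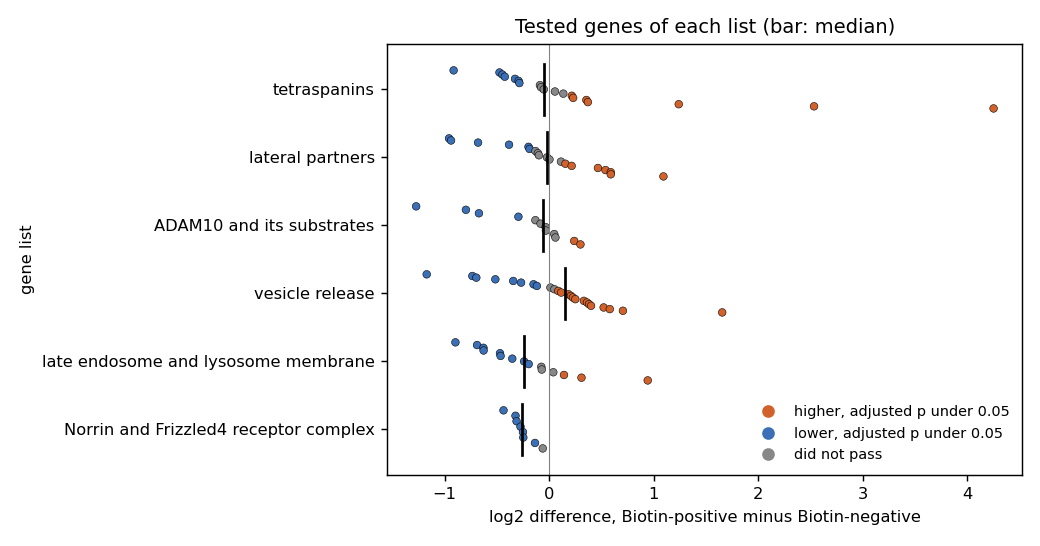
Log2 differences of the tested tetraspanins and of the tested genes of 5 partner lists, with 1 point per gene, coloured by its limma call, and a bar at the median of each list. Medians run from -0.26 for the Norrin and Frizzled 4 complex to 0.15 for vesicle release, and the tetraspanin row has the widest range because of Cd9 at 4.25.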

How the data were processed

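RNA of 6 L929 co-culture libraries, 3 Biotin-negative and 3 Biotin-positive, was sequenced on an Illumina NovaSeq. Per the submitters' processing notes cutadapt 1.9.1, HISAT2 2.2.1, HTSeq 0.6.1 and the build GRCm39 were used. The gene positions in the deposited table are nevertheless those of GRCm38: of 21816 genes found in GENCODE vM21 (GRCm38) by identifier and chromosome, 99.1% had the same start and end, all 29 members among them. The authors deposited FPKM values, 1 column per library, and the program that made them, their denominator and the strandedness are not given in the sources used here. FPKM are not counts, and the depth is unknown.

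Values were taken as log2(FPKM + 1). The 11029 genes that reached 1 FPKM in 3 or more libraries were fitted with limma 3.58.1 in R 4.3.3 (lmFit, eBayes with a trend, two-sided) and Benjamini-Hochberg adjustment over all of them, after a test on simulated data. Members, lists and the naming rule were chosen with earlier results of these data known. Values per library are given for tested members with an absolute log2 difference of at least 0.8 or a group mean of at least 50 FPKM and for those that did not pass. From each list up to 3 passing genes with the largest differences, and up to 1 of the opposite sign, are named. The libraries were not paired by replicate number. Alternatives changed the pseudocount, filter, scaling, eBayes setting and replicate block, left out each library in turn with the tested genes kept, or asked for a log2 difference of at least 1.

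Promoter windows are from RefSeq (GRCm38.p6). Exon overlaps and near-identical copies (blastn 2.17.0, at least 98% identity over at least 100 bases) were read within GENCODE vM21. Gene coordinates are those of the deposited file. Python 3.11.15 was used for these steps.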

Additional observations from a re-analysis of the deposited data

How the results depend on the processing

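Over the alternatives run, the 14 tetraspanins that passed kept their direction wherever they were tested, and Cd53 was the only one whose call was lost, without filter (adjusted p = 0.0757) and without 4 of the 6 libraries, as given above. The number of rises lay between 5 and 9 and of falls between 4 and 7 over the pseudocounts, filters, scalings, eBayes settings and left-out libraries. With at least 5 FPKM in 3 libraries only 13 members were tested, of which 5 rose and 4 fell. A further demand for a log2 difference of at least 1 left 3 rises and 0 falls among the tetraspanins, 583 and 376 among all genes, 1 and 0 among lateral partners, 0 and 1 in the ADAM10 list, 1 and 1 in vesicle release, 0 and 0 in the late endosome list, and 0 falls in the Norrin list. The rises in the ADAM10 list were 4 without a filter and 1 at 5 FPKM, with more and fewer genes tested. In vesicle release 11 of 24 tested genes rose with an equal sum per library, where 3688 of all 11029 tested genes rose. Without Biotin-positive replicate 1 the rises in vesicle release were also 11. Among members that did not pass, the sign turned for Tspan4 with quantile normalization (-0.051) and with an equal sum per library (-0.0067), for Tspan3 without Biotin-negative replicate 3 (0.0017, and -0.081 to 0.0017 over the left-out libraries) and for Tspan5 without Biotin-positive replicate 3 (-0.0017, and -0.0017 to 0.262), and the cause was not tested.

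Libraries with the same replicate number deviated from their group means with correlations across genes of 0.037, 0.012 and 0.014, and not every library correlated best with its own number, so the numbers were not taken as pairs. With the replicate number as a block, 7 tetraspanins rose and 7 fell, as without it, and 4113 of all genes rose and 3927 fell. The depth is not known, so no limit from counting can be given for members listed at 0.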
